A study of Mus musculus with 2 samples.

Results

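Levels are given for 10 genes of the vascular growth factor system in hearts of mouse embryos at E12.5: the ligands Vegfa, Vegfb and Angpt1, the receptors Kdr, Flt1, Flt4, Tek and Tie1, and the co-receptors Nrp1 and Nrp2. They were matched by symbol, and all 10 were found among the 31053 genes of the count tables. The mutant was Tbx18-Cre with Prmt1 fl/fl and one YFP reporter allele, and the control was Tbx18-Cre with YFP/+, so both carried the Cre driver and the reporter. Prmt1 encodes a protein arginine methyltransferase. Tbx18-Cre is active in the epicardium, the outer cell sheet of the heart. Hearts were dissociated with TrypLE and profiled as single cells with a droplet kit, with 1 library per genotype. How many embryos were pooled, and whether cells were sorted, is not given in the sources used here. With 1 library each, no difference between the genotypes has a replicate check, no test was possible, and every interval below is a 95% interval for counting error only.

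VEGF ligands bind receptor tyrosine kinases on endothelial cells, the lining of vessels and of the heart's chambers. VEGF-A acts mainly through the receptor encoded by Kdr, while the Flt1 product binds VEGF-A and VEGF-B and can act as a decoy. Angiopoietin-1 binds the receptor encoded by Tek, and Tie1 encodes a related receptor that works with it. In the developing heart these pathways guide the endocardium and the coronary vessels, and muscle is a known source of ligand.

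The 4 promoters below belong to Kdr, Flt1, Tie1 and Tek, shown because these receptors had their highest levels in the same endothelial cells and only Tek was also detected at over 10 CPM (unique molecular identifier counts, UMIs, scaled to a class total of 1000000) in epicardial and mesenchymal cells. Each is the 250 bases before the gene's start in RefSeq on GRCm38.p6, written 5′ to 3′ on the gene's strand. Capitals mark GGAAG or its reverse complement CTTCC, letters that hold the GGAA core of ETS factor motifs.
Kdr: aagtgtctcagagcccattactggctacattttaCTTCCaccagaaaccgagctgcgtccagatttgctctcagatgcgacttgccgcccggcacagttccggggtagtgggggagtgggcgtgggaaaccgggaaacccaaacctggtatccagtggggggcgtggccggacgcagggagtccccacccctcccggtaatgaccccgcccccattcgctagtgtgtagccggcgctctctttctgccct
Flt1: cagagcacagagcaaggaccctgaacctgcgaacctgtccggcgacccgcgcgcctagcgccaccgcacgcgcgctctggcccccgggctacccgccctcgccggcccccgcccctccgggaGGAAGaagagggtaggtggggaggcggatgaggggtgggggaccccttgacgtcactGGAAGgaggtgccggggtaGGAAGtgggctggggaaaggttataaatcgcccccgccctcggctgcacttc
Tie1: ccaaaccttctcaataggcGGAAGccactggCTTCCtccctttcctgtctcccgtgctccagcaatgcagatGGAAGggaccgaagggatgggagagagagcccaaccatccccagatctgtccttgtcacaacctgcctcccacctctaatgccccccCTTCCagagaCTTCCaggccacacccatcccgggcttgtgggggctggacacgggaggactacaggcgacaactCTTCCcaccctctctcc
Tek: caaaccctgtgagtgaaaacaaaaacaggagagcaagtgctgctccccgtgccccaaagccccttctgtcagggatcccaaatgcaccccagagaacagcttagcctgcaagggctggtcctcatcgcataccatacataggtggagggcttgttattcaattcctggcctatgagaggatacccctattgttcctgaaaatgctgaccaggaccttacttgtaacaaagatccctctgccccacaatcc
The Kdr window is chr5:75978456-75978705 on the minus strand and held 1 such match. The Flt1 window, chr5:147726012-147726261 on the minus strand, held 3 matches. The Tie1 window, chr4:118489850-118490099 on the minus strand, held 6. The Tek window, chr4:94739039-94739288 on the plus strand, held 0 matches to GGAAG on either strand. The shorter GGAA core was not counted, and its reverse complement TTCC is present in the Tek sequence above. Of 32851 mouse promoter windows of the same length, 64.1% held at least 1 match, so a match here is common and is a description only. RefSeq windows were found for 9 of the 10 genes.

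The build behind the counts is not given in the labels, so positions are those of GENCODE M21 on GRCm38, matched by gene identifier. Kdr (ENSMUSG00000062960) lies on chromosome 5 from 75932827 to 75978458 and Flt1 (ENSMUSG00000029648) on chromosome 5 from 147561604 to 147726011, both on the minus strand. Tek (ENSMUSG00000006386) lies on chromosome 4 from 94739289 to 94874976 on the plus strand, and Tie1 (ENSMUSG00000033191) on chromosome 4 from 118471191 to 118490061 on the minus strand. Flt4 (ENSMUSG00000020357) is on chromosome 11 from 49609263 to 49652739. Nrp1 (ENSMUSG00000025810) is on chromosome 8 from 128358604 to 128503363 and Nrp2 (ENSMUSG00000025969) on chromosome 1 from 62703285 to 62818695, all 3 on the plus strand. The ligand genes are on the minus strand: Vegfa (ENSMUSG00000023951) on chromosome 17 from 46016993 to 46032369, Vegfb (ENSMUSG00000024962) on chromosome 19 from 6982473 to 6987651, and Angpt1 (ENSMUSG00000022309) on chromosome 15 from 42424723 to 42676977. Angpt1 shares exon sequence with Gm17473 on the other strand, which had 43 UMIs in mutant and 40 in control cardiomyocytes. Whether counting used strand is not given in the sources used here.

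Cells were assigned to classes by marker panels that hold none of the 10 genes. Endothelial cells numbered 264 in the mutant and 196 in the control library, and were split by at least 1 UMI of Npr3, a gene of the endocardium. The Npr3-positive class held 55 mutant and 31 control cells, and the Npr3-negative class 209 mutant and 165 control cells. There were 1588 mutant and 2022 control cardiomyocytes, 330 mutant and 189 control epicardial cells, and 1498 mutant and 914 control mesenchymal cells. Of the 4640 mutant and 4100 control cells kept, 8 barcodes were shared. All barcodes of the count tables together held 48527471 UMIs in the mutant and 49323576 UMIs in the control library. The control table was unfiltered and the mutant table held only barcodes with many UMIs, so the same minimums were applied to both. Prmt1 was at 378 CPM in mutant and 473 CPM in control epicardial cells, and at 624 CPM in mutant and 567 CPM in control cells over the whole library. The floxed exons are not named in the labels, and 3′ counts need not report their deletion.

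The class names held against their panels with some limits. The 9 endothelial panel genes summed to 3282 CPM in mutant and 3360 CPM in control Npr3-positive cells, and to 3068 CPM in mutant and 2969 CPM in control Npr3-negative cells. The mutant Npr3-negative class was led by Nts, Wnt4 and Stmn2, and the control one by Nts, Fabp4 and Icam2. The Npr3 split did not separate endocardium from vessels cleanly. The 5 other endocardial markers summed to 470 CPM in mutant and 568 CPM in control Npr3-positive cells, against 550 CPM in mutant and 278 CPM in control Npr3-negative cells. The 8 vessel markers summed to 418 CPM in mutant and 117 CPM in control Npr3-positive cells, and to 341 CPM in mutant and 1023 CPM in control Npr3-negative cells. Fabp4, a vessel marker, gave 199 CPM of the mutant and 918 CPM of the control Npr3-negative sum. Of the other vessel markers, Cav1, Car4 and Cd36 were higher in mutant and Apln, Aplnr and Igfbp3 higher in control Npr3-negative cells. The marker sums of the endothelial classes therefore differed between the libraries. Whether the makeup of these classes also differed, and the part of makeup in the results below, was not tested. Epicardial cells carried the 13 mesenchymal panel genes at 6429 CPM in the mutant library and 7346 CPM in the control, near the 6253 CPM of mutant and 6649 CPM of control mesenchymal cells. The epicardial panel set them apart, at 2735 CPM in mutant and 3441 CPM in control epicardial cells, against 219 CPM in mutant and 188 CPM in control mesenchymal cells. Mesenchymal cells held 8 vessel wall markers at a summed 118 CPM in the mutant library and 396 CPM in the control.

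Vegfb, which encodes a ligand of Flt1, was mainly a gene of the heart muscle in both libraries. Its level in cardiomyocytes was 564 CPM in the mutant (555 to 573) and 573 CPM in the control (565 to 582). Mesenchymal cells were at 127 CPM in the mutant library and 149 CPM in the control, epicardial cells at 116 CPM in the mutant library and 105 CPM in the control. Endothelial cells were the lowest of the 5 classes: 88.4 CPM in mutant and 74.1 CPM in control Npr3-positive cells, 70.7 CPM in mutant and 76.4 CPM in control Npr3-negative cells. The cardiomyocyte level stood clear of every other class in both libraries, while the intervals of the Npr3-positive and epicardial levels overlapped in each. A Vegfb UMI was found in 97.1% of mutant and 94.8% of control cardiomyocytes, at a median depth of 11840.5 UMIs in mutant and 10692 UMIs in control cells. Thinned to 1000 UMIs per cell, the share was 44.0% in mutant and 43.5% in control cardiomyocytes. Red cells, which should lack the gene, had a UMI in 4.53% of mutant and 7.27% of control cells at median depths of 8454 UMIs in the mutant and 14016 UMIs in the control, and in 0.324% of mutant and 1.21% of control cells after thinning.

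Vegfa, the main ligand of Kdr, was low and nearly even across the classes. Cardiomyocytes were at 14.6 CPM in the mutant (13.3 to 16.1) and 11.5 CPM in the control (10.3 to 12.7). Epicardial cells were at 16.2 CPM in the mutant (10.3 to 24.3) and 13.9 CPM in the control (6.96 to 24.95), and mesenchymal cells at 10.6 CPM in the mutant (7.69 to 14.2) and 7.89 CPM in the control (4.68 to 12.47). In each library the epicardial and cardiomyocyte intervals overlapped, so neither class can be placed above the other. Endothelial cells gave 15 Vegfa UMIs in the mutant and 7 in the control over both Npr3 classes. Angpt1, the ligand of the Tek product, had its highest class level in cardiomyocytes, at 18.0 CPM in the mutant (16.5 to 19.7) and 16.7 CPM in the control (15.3 to 18.2). Mesenchymal cells were at 6.98 CPM in the mutant (4.67 to 10.0) and 11.8 CPM in the control (7.80 to 17.2). Epicardial cells were at 6.34 CPM in the mutant library and 2.54 CPM in the control. The cardiomyocyte interval was clear of the mesenchymal one in the mutant but overlapped it in the control, where their order is not settled. Epicardial and mesenchymal intervals overlapped in each library, so these classes cannot be ordered for Angpt1. Endothelial cells held 2 Angpt1 UMIs in the mutant and 1 in the control.

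**Figure D1:**
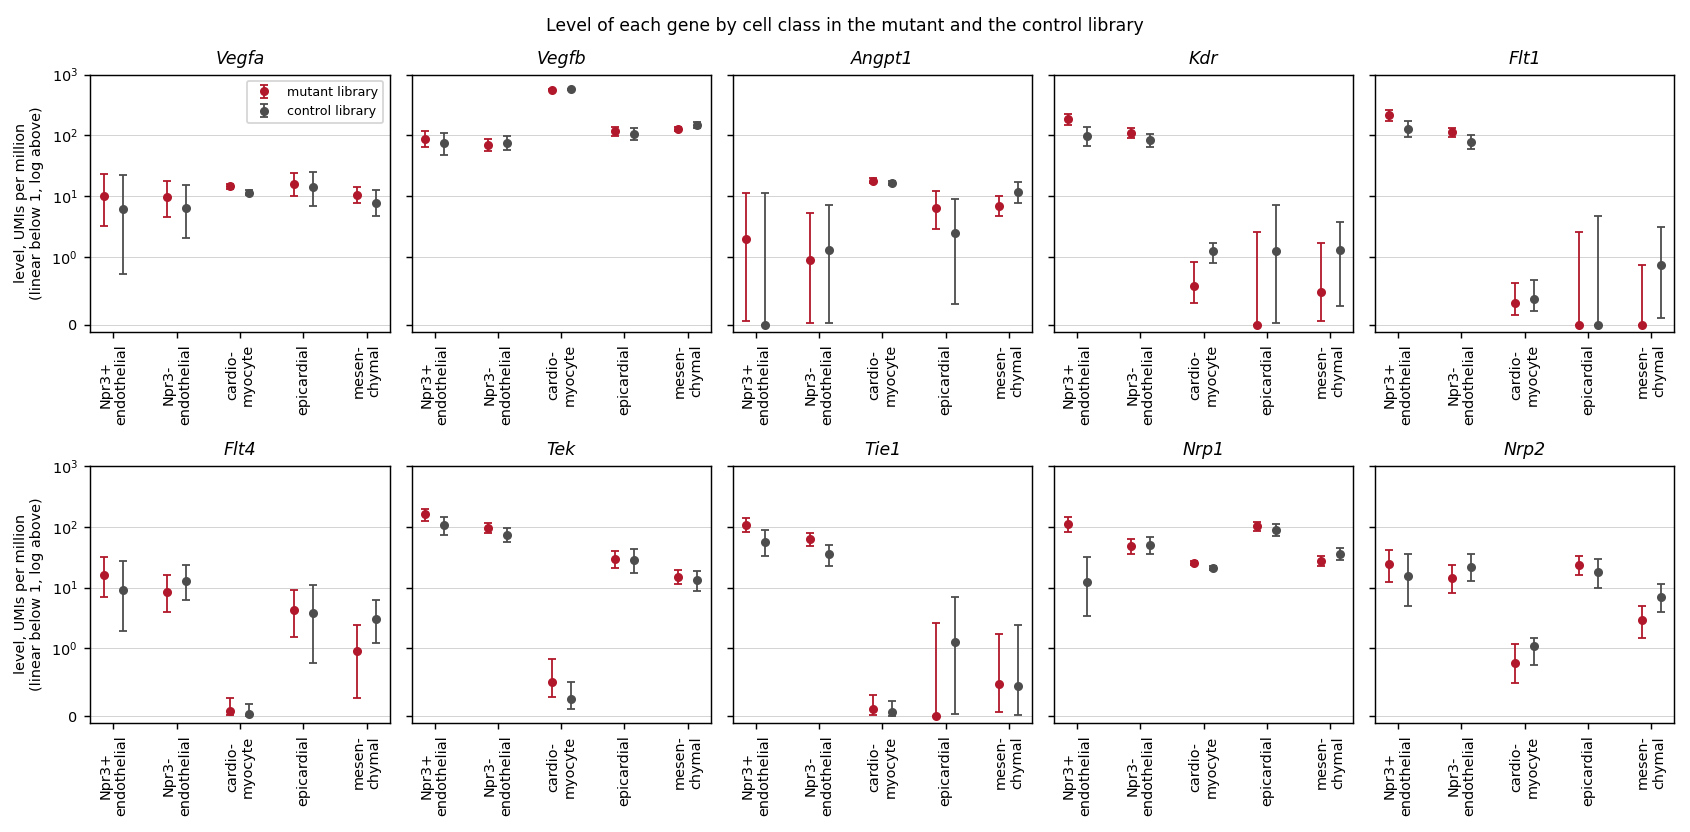
Level of each of the 10 genes in CPM (vertical axis, linear below 1 and logarithmic above) in 5 cell classes, mutant library in red to the left of the control library in grey, with exact Poisson 95% intervals. Vegfb stands at 564 CPM in mutant and 573 CPM in control cardiomyocytes, while Kdr, Flt1 and Tie1 sit near 0 outside the endothelial classes.

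Kdr, the main signalling receptor for VEGF-A, and Flt1 were endothelial genes in these hearts. Kdr was at 183 CPM in mutant (147 to 225) and 98.7 CPM in control (67.5 to 139) Npr3-positive cells, and at 110 CPM in mutant (90.7 to 132) and 82.8 CPM in control (63.8 to 106) Npr3-negative cells. Flt1 was at 213 CPM in mutant (174 to 258) and 130 CPM in control (93.4 to 175) Npr3-positive cells, and at 112 CPM in mutant (92.4 to 134) and 77.7 CPM in control (59.3 to 99.97) Npr3-negative cells. Outside the endothelium both were near 0. In cardiomyocytes Kdr was at 0.576 CPM in the mutant library and 1.27 CPM in the control, and Flt1 at 0.324 CPM in the mutant library and 0.382 CPM in the control. In epicardial cells Flt1 had 0 UMIs in both libraries, which allows up to 2.11 CPM in the mutant library and 3.804 CPM in the control. Kdr had 0 UMIs in mutant and 1 UMI in control epicardial cells. A Kdr UMI was found in 41.8% of mutant and 32.3% of control Npr3-positive cells at median depths of 5180 UMIs in the mutant and 4628 UMIs in the control, against 1.62% of mutant and 1.21% of control red cells, which were deeper. After thinning to 1000 UMIs the Kdr share was 12.7% in mutant and 9.68% in control Npr3-positive cells, and 0 in red cells of both libraries.

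Flt4, the receptor of VEGF-C, had few UMIs. Npr3-positive cells gave 8 in the mutant and 3 in the control, and Npr3-negative cells 9 in the mutant and 10 in the control, which is 8.59 CPM in the mutant library and 12.9 CPM in the control. Epicardial cells were at 4.23 CPM in the mutant library and 3.804 CPM in the control. Of 4 lymphatic markers, Prox1 was found in both endothelial classes, with 14 UMIs in mutant and 3 in control Npr3-positive cells and 7 in mutant and 4 in control Npr3-negative cells. That ran from 5.18 CPM in control Npr3-negative to 28.1 CPM in mutant Npr3-positive cells. Prox1 was also at 21.2 CPM in mutant and 21.7 CPM in control cardiomyocytes, so it was not particular to endothelial cells. Pdpn and Reln had 0 UMIs in both endothelial classes of both libraries, and Lyve1 had 12 UMIs in mutant and 0 in control Npr3-negative cells. At this depth Flt4 could not be ordered between endothelial and epicardial cells of either library, whose intervals overlapped.

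Tie1, like Kdr and Flt1, was nearly absent outside the endothelium, and Tek was not. Tie1 was at 109 CPM in mutant (81.5 to 142) and 55.5 CPM in control (32.9 to 87.8) Npr3-positive cells, and at 63.0 CPM in mutant (48.7 to 80.2) and 34.9 CPM in control (23.0 to 50.8) Npr3-negative cells. The other 3 classes together held 5 Tie1 UMIs in the mutant and 4 in the control. Tek was at 159 CPM in mutant (126 to 198) and 105 CPM in control (72.7 to 147) Npr3-positive cells, and at 95.5 CPM in mutant (77.7 to 116) and 73.8 CPM in control (55.9 to 95.6) Npr3-negative cells. It was also present in epicardial cells, at 29.6 CPM in the mutant (21.3 to 40.0) and 27.9 CPM in the control (17.5 to 42.2), and in mesenchymal cells, at 14.9 CPM in the mutant (11.4 to 19.1) and 13.2 CPM in the control (8.87 to 18.8). Cardiomyocytes were at 0.504 CPM in the mutant library and 0.254 CPM in the control. A Tek UMI was found in 37 of 330 mutant and 19 of 189 control epicardial cells, and in 2 of 309 mutant and 0 of 165 control red cells, although red cells were deeper. The endothelial panel was at 81.7 CPM in mutant and 63.4 CPM in control epicardial cells, with 5 of its 9 genes at 0 in each library, and Flt1 was at 0 there. Cells that passed both the endothelial and the epicardial gate had been left out, which holds this panel level down. Epicardial Tek was 1.98 times the mesenchymal level in the mutant (1.31 to 2.98) and 2.12 times in the control (1.17 to 3.802).

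Within single cells the 4 endothelial receptors Kdr, Flt1, Tek and Tie1 were found together only in endothelial cells among the 3 classes examined for this. Cells that passed the endothelial gate and another gate had been left out beforehand. Epicardial or mesenchymal cells with many endothelial panel UMIs could therefore not enter these counts. Of 264 mutant endothelial cells, 96 had a UMI of none, 94 of 1, 41 of 2, 21 of 3 and 12 of all 4. Of 196 control endothelial cells, 88 had none, 65 had 1, 23 had 2, 13 had 3 and 7 had all 4. Cells with more receptors were deeper: the median was 28471.5 UMIs for mutant and 30682 UMIs for control cells with all 4, against 2973 UMIs for mutant and 2203 UMIs for control cells with none. Among epicardial cells 37 of 330 in the mutant and 21 of 189 in the control had 1 of the 4, and among mesenchymal cells 63 of 1498 in the mutant and 33 of 914 in the control. In those classes 0 cells had more than 1, at median depths of 2979 UMIs in mutant and 2612 UMIs in control epicardial cells and of 2208 UMIs in mutant and 1853 UMIs in control mesenchymal cells.

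Nrp1 and Nrp2 encode neuropilins, co-receptors that bind VEGF and semaphorins. Nrp1 was found in all 5 classes, and in epicardial cells at a level no lower than in most endothelial cells. Epicardial cells were at 101 CPM in the mutant (85.5 to 119) and 88.8 CPM in the control (69.2 to 112), and Npr3-negative endothelial cells at 47.7 CPM in the mutant (35.4 to 62.9) and 50.5 CPM in the control (35.9 to 69.0). Npr3-positive cells were at 111 CPM in the mutant (83.3 to 144) and 12.3 CPM in the control (3.36 to 31.6). Mesenchymal cells were at 27.0 CPM in the mutant library and 35.5 CPM in the control, and cardiomyocytes at 25.5 CPM in the mutant library and 21.3 CPM in the control. The epicardial level exceeded the mesenchymal one 3.76 times in the mutant (2.92 to 4.86) and 2.50 times in the control (1.79 to 3.48). This order depended on the gate. With joint clusters in place of gates, which put 662 mutant cells in the epicardial class, epicardial Nrp1 was at 48.6 CPM in mutant and 42.4 CPM in control cells, and mesenchymal Nrp1 at 46.1 CPM in mutant and 40.9 CPM in control cells. Nrp2 was at 23.2 CPM in mutant and 17.8 CPM in control epicardial cells, against 2.89 CPM in mutant and 7.01 CPM in control mesenchymal cells, ratios of 8.05 in the mutant (4.05 to 17.1) and 2.53 in the control (1.14 to 5.53). In endothelial cells Nrp2 was at 14.3 CPM in mutant and 22.0 CPM in control Npr3-negative cells, which overlapped the epicardial interval of each library.

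Cardiomyocytes were also split by Myl2, which encodes the ventricular myosin light chain. Angpt1 was found in both groups and was higher in the Myl2-low cells. It was at 32.2 CPM in mutant (28.1 to 36.7) and 31.6 CPM in control (27.9 to 35.7) Myl2-low cells, against 13.3 CPM in mutant (11.8 to 14.99) and 11.4 CPM in control (10.1 to 12.9) Myl2-high cells. The ratio of Myl2-high to Myl2-low was 0.413 in the mutant (0.345 to 0.495) and 0.360 in the control (0.302 to 0.429). Vegfa ran the other way, at 15.9 CPM in mutant and 13.1 CPM in control Myl2-high cells and 10.98 CPM in mutant and 6.96 CPM in control Myl2-low cells, a ratio of 1.44 in the mutant (1.12 to 1.88) and 1.88 in the control (1.41 to 2.54). Nrp1 was 1.42 times higher in Myl2-high cells of both libraries, and Vegfb 1.13 times higher in the mutant and 1.21 times in the control. The groups were of like depth, with medians of 11857.5 UMIs in mutant and 10389.5 UMIs in control Myl2-high cells and 11675.5 UMIs in mutant and 11564 UMIs in control Myl2-low cells. Among Myl2-high cells, those with high Nppa, a gene of the trabeculae, differed from the rest by no more than counting error for Vegfa, Vegfb, Nrp1 and Angpt1 in both libraries.

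**Figure D2:**
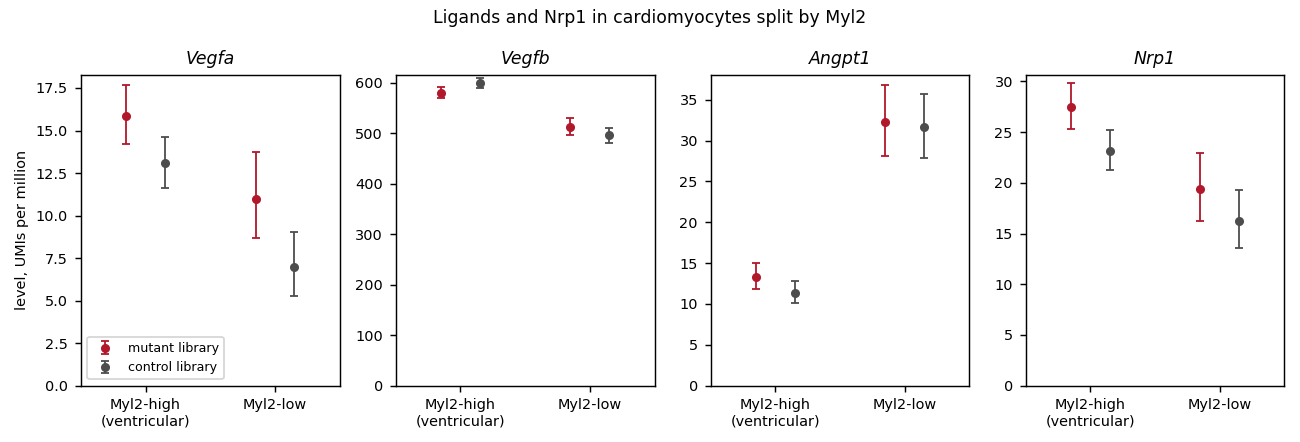
Levels of Vegfa, Vegfb, Angpt1 and Nrp1 in CPM (vertical axes from 0, scaled per gene) in Myl2-high and Myl2-low cardiomyocytes, mutant library in red left of the control library in grey, with exact Poisson 95% intervals. Angpt1 stands at 32.2 CPM in mutant and 31.6 CPM in control Myl2-low cells, above 13.3 CPM in mutant and 11.4 CPM in control Myl2-high cells.

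The mutant library was set against the control in each class as log2((mutant CPM + 10)/(control CPM + 10)), which understates the change of low genes. A gene counted as measured in a class with a mean of at least 10 CPM and at least 30 UMIs over both libraries. In cardiomyocytes 4 of the 10 genes were measured and 0 passed 1.5-fold in either direction. Of 5365 genes measured in that class, 0.391% were past it towards the mutant and 0.317% towards the control. The log2 ratios were -0.02 for Vegfb (-0.05 to 0.01), 0.20 for Vegfa (0.08 to 0.32), 0.18 for Nrp1 (0.07 to 0.29) and 0.07 for Angpt1 (-0.04 to 0.19). In epicardial cells, where Tbx18-Cre is active, 5 were measured and 0 passed, with 2.70% of 6010 genes past 1.5-fold towards the mutant and 4.66% towards the control. Their log2 ratios lay between 0.06 for Tek and 0.26 for Nrp2, and all 5 intervals included 0. The Nrp1 interval there was -0.21 to 0.56 for counting error, and with stricter gates Nrp1 was at 0.63 and Nrp2 at 0.80, both past 1.5-fold. In mesenchymal cells 3 were measured and 0 passed, with 0.714% of 6587 genes past 1.5-fold towards the mutant and 1.05% towards the control. Vegfb was at -0.21 (-0.40 to -0.03), Nrp1 at -0.30 (-0.62 to 0.02) and Tek at 0.11 (-0.28 to 0.48) in mesenchymal cells. Over the measured VEGF and angiopoietin genes the median log2 ratio was 0.13 in cardiomyocytes, 0.13 in epicardial and -0.21 in mesenchymal cells, against 0.02, -0.02 and -0.01 over all genes measured in those classes.

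In Npr3-positive endothelial cells 6 of the 10 genes were measured and 4 passed 1.5-fold, all towards the mutant. Of 3350 genes measured there, 16.1% were past it towards the mutant and 9.16% towards the control, so large ratios were common in this small class. The log2 ratio was 2.43 for Nrp1 (1.45 to 3.24), 0.85 for Tie1 (0.16 to 1.57), 0.83 for Kdr (0.27 to 1.40) and 0.68 for Flt1 (0.18 to 1.19). Tek was at 0.55 (0.00 to 1.12) and Vegfb at 0.23 (-0.44 to 0.91), short of 1.5-fold. The median of the 6 was 0.75, against 0.00 over all genes measured. Few cells carried these sums. Of the 32 control Kdr UMIs 21 came from 1 cell of 98609 UMIs, which held 30.4% of all UMIs of the control class. That cell also gave 18 of 42 control Flt1 UMIs. Without the deepest cell of each library, chosen after seeing the data, the log2 ratios were 1.43 for Kdr, 0.81 for Flt1, 0.73 for Tie1, 1.89 for Nrp1 and 0.85 for Tek. With equal weight for each cell they were 0.44 for Kdr, -0.09 for Flt1, 0.21 for Tie1, 1.38 for Nrp1, 0.83 for Tek and 0.74 for Vegfb. So weighted, 3 of the 6 were past 1.5-fold, without a share over all genes to set beside them. With at least 2 Npr3 UMIs required, and so fewer cells, Kdr was at -0.11, Tie1 at 1.17 and Nrp1 at 3.44. Thinned to 1000 UMIs per cell, 0 of these genes met the minimum of 30 UMIs, and the ratios spread from -0.08 for Tie1 and 0.44 for Nrp1 to 1.26 for Vegfb and 1.88 for Tek. Nrp1 rested on 55 UMIs in 18 of 55 mutant cells and 4 UMIs in 4 of 31 control cells. The endothelial panel genes went both ways in Npr3-positive cells. Cdh5 and Pecam1, of the endothelial junction, were at 277 CPM and 197 CPM in the mutant and 114 CPM and 105 CPM in the control. Cldn5, Esam and Plvap were also higher in the mutant, and Emcn was nearly even. Egfl7, Ecscr and Icam2 were lower, at 862 CPM, 384 CPM and 452 CPM in the mutant and 1052 CPM, 506 CPM and 605 CPM in the control. The whole panel was at 3282 CPM in the mutant library and 3360 CPM in the control.

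In Npr3-negative endothelial cells 7 genes were measured and 1, Tie1, passed 1.5-fold towards the mutant, with 7.66% of 4855 genes past it towards the mutant and 2.80% towards the control. Tie1 was at 0.70 (0.15 to 1.24), from 66 UMIs in 43 of 209 mutant cells and 27 UMIs in 21 of 165 control cells. It was at 0.81 with equal weight for each cell and at 0.51, under 1.5-fold, without the deepest cell of each library. Flt1 was at 0.47 (0.06 to 0.89), Kdr at 0.37 (-0.04 to 0.78) and Tek at 0.33 (-0.10 to 0.77). Flt1 was at -0.05 with equal weight for each cell, and Tek at -0.02 without the deepest 5% of cells. The median of the 7 was 0.33, against 0.04 over all genes measured. Nrp1 was at -0.07 (-0.59 to 0.46). With both classes joined, an arrangement added after seeing the data, 8 genes were measured and 2 passed 1.5-fold towards the mutant, with 7.47% of 6128 genes past it towards the mutant and 1.37% towards the control. These were Tie1 at 0.78 (0.36 to 1.21) and Nrp1 at 0.66 (0.23 to 1.10), with Flt1 at 0.58 and Kdr at 0.56 just under 1.5-fold. With equal weight for each cell the joined ratios were 0.69 for Tie1, 0.47 for Kdr, 0.39 for Nrp1, 0.27 for Tek and -0.02 for Flt1. Without the deepest cell of each library 4 genes passed 1.5-fold, at 0.79 for Kdr, 0.74 for Tie1, 0.73 for Flt1 and 0.60 for Nrp1. The share of all genes past 1.5-fold was not found with cells left out or reweighted, so such counts have no background. Without the deepest 5% of cells the ratios were 0.46 for Tie1, 0.33 for Kdr, 0.23 for Tek, 0.20 for Nrp1 and 0.01 for Flt1, so none of these 5 passed 1.5-fold.

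**Figure D3:**
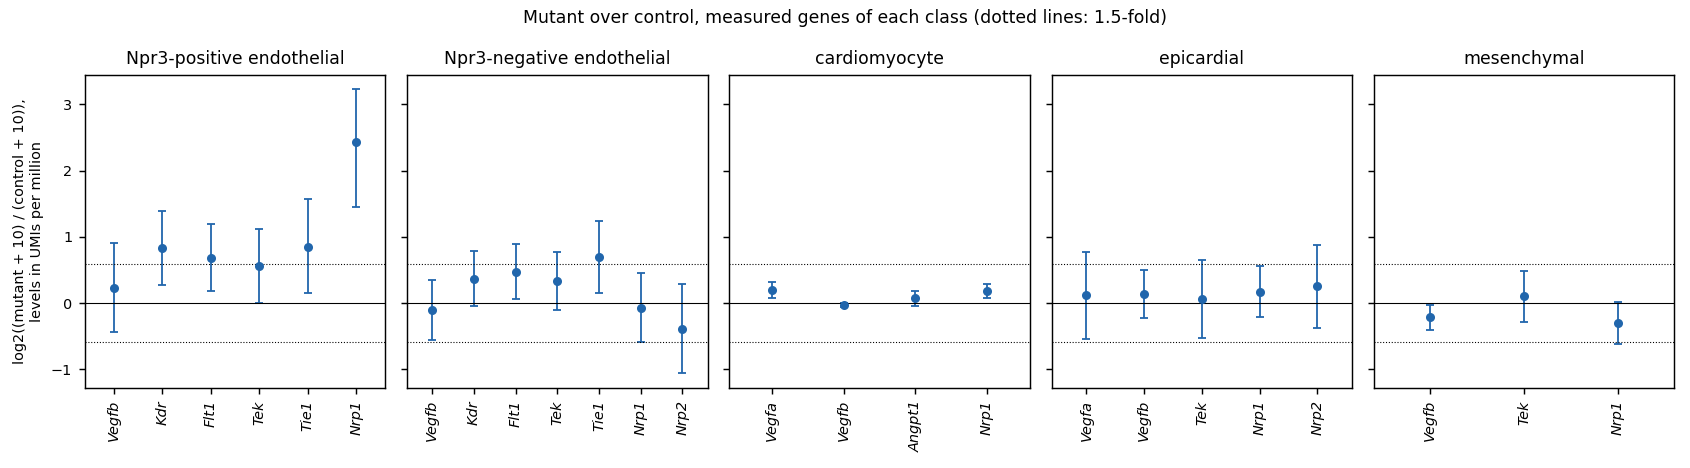
Log2 ratio of the mutant over the control library, with 10 CPM added to each level, for the genes measured in each of 5 cell classes (vertical axis), with exact conditional binomial 95% intervals and dotted lines at 1.5-fold. In cardiomyocytes, epicardial and mesenchymal cells 0 genes lie past the dotted lines, while Nrp1 in Npr3-positive endothelial cells stands at 2.43.

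**Figure D4:**
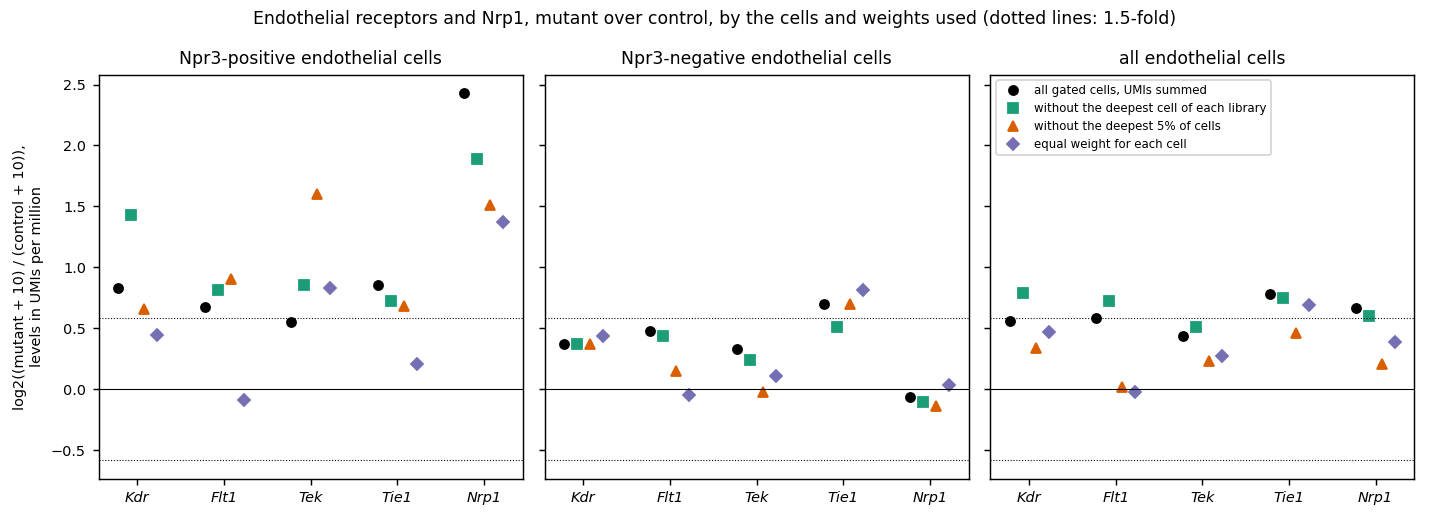
Log2 ratio of the mutant over the control library (vertical axis) for Kdr, Flt1, Tek, Tie1 and Nrp1 in 3 groupings of endothelial cells, by the cells and weights used, with dotted lines at 1.5-fold. In all endothelial cells Tie1 runs between 0.46 and 0.78, while Flt1 is at 0.58 with UMIs summed over all cells and at -0.02 with equal weight for each cell.

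For the 6 members with at least 50 CPM in a group, the genes whose levels ran most alike over the 10 groups of class by library were found by Pearson's r of log2(CPM + 10), out of 3491 genes. For Kdr these were Abhd17a (r = 0.996), Mmrn2 (0.996) and Nos3 (0.995), and for Flt1 Gja4 (0.996), Mmrn2 (0.996) and Abhd17a (0.993). Mmrn2 encodes an endothelial matrix protein, Nos3 the endothelial nitric oxide synthase and Gja4 a gap junction protein of endothelial cells. Tie1 ran most like Etv2 (0.995), Mmrn2 (0.994) and Cd93 (0.991), and Tek most like Ece1 (0.994), Palm (0.989) and Npdc1 (0.985). Vegfb ran most like the muscle genes Hspb7 (0.991), Nexn (0.991) and Ankrd1 (0.988). Of these 6, Nrp1 had the loosest matches, among them Vcp (0.949) and Birc6 (0.941). The groups share 2 libraries and 4 of the 10 are endothelial, so the points are not independent and each r is a description.

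Other genes of the pathway were counted in 6 lists, read against the same background shares. In Npr3-positive cells 16.1% of all genes measured were past 1.5-fold towards the mutant and 9.16% towards the control. In Npr3-positive cells the receptor partners had 6 of 9 measured genes past 1.5-fold towards the mutant and 0 towards the control, with a median log2 ratio of 0.83. Among them Cd93 was at 181 CPM in mutant and 77.1 CPM in control cells, Plxnd1, a semaphorin receptor, at 139 CPM in mutant and 58.6 CPM in control cells, Ptprb, the phosphatase that restrains the Tek receptor, at 129 CPM in mutant and 55.5 CPM in control cells, and Mmrn2 at 117 CPM in mutant and 52.5 CPM in control cells. With equal weight for each cell 3 of these 4 were under 1.5-fold, at log2 ratios of -0.17 for Plxnd1, -0.08 for Cd93 and 0.51 for Mmrn2. Ptprb was at 1.69, and its mutant UMIs came from 7 of 55 cells. The endothelial transcription factors had 8 of 13 towards the mutant and 1 towards the control. Klf4 was at 255 CPM in mutant and 52.5 CPM in control cells, Ets2 at 121 CPM in mutant and 24.7 CPM in control cells, and Fli1, an ETS factor, at 68.3 CPM in mutant and 12.3 CPM in control cells. Lmo2 was at 56.3 CPM in mutant and 164 CPM in control cells, with 39 of its 53 control UMIs from 1 cell. One mutant cell gave 63 of 127 Klf4 UMIs. At equal weight per cell Fli1 was at 0.58, just under 1.5-fold, while Klf4 was at 2.22, Ets2 at 1.84 and Lmo2 at -1.42.

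Signal transduction genes in Npr3-positive cells had 3 of 12 towards the mutant and 1 towards the control. The shares over all genes measured there were 16.1% towards the mutant and 9.16% towards the control. Fyn, a Src-family kinase, was at 60.3 CPM in mutant and 21.6 CPM in control cells, and Rasip1, a regulator of vessel lumens, at 76.4 CPM in mutant and 37.0 CPM in control cells. Weighting each cell equally, Rasip1 was at 0.46, under 1.5-fold, and Fyn at 1.31. Of the hypoxia list 3 of 4 were past 1.5-fold towards the mutant: Egln1, an oxygen sensor, at 76.4 CPM in mutant and 24.7 CPM in control cells, and the glycolytic genes Pgk1 at 322 CPM in mutant and 151 CPM in control cells and Ldha at 734 CPM in mutant and 417 CPM in control cells. With equal weight for each cell Pgk1 was at 0.35 and Ldha at 0.27, both under 1.5-fold, and Egln1 at 0.76. Of the VEGF-induced list 1 of 2 was past 1.5-fold, Mef2c, at 141 CPM in mutant and 74.1 CPM in control cells and at 0.20 with equal weight for each cell, and 0 of 15 other ligand genes were measured.

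In Npr3-negative cells fewer list genes were past 1.5-fold. Over all genes measured there the shares were 7.66% towards the mutant and 2.80% towards the control. The receptor partners had 2 of 11 towards the mutant and 1 towards the control: Ptprb at 91.7 CPM in mutant and 37.5 CPM in control cells, Unc5b at 27.7 CPM in mutant and 9.06 CPM in control cells, and Clec14a, an endothelial lectin, at 22.9 CPM in mutant and 54.4 CPM in control cells. The transcription factors had 3 of 14 towards the mutant and 1 towards the control. Etv2, a factor of early endothelium, was at 43.0 CPM in mutant and 16.8 CPM in control cells, Foxc1 at 31.5 CPM in mutant and 14.2 CPM in control cells, Foxc2 at 22.0 CPM in mutant and 10.4 CPM in control cells, and Sox17, a factor of arterial and endocardial cells, at 98.3 CPM in mutant and 166 CPM in control cells. Grb2 was 1 of 16 signal transduction genes past 1.5-fold, Nr4a1 1 of 4 VEGF-induced genes, and 0 of 5 hypoxia genes passed. At equal weight per cell Ptprb was at 0.28, Sox17 at -0.22, Grb2 at 0.30 and Nr4a1 at 0.06, all under 1.5-fold. So weighted, Etv2 at 1.05, Clec14a at -1.04, Unc5b at 0.89, Foxc2 at 0.76 and Foxc1 at 0.70 stayed past it. Of 29 mutant Unc5b UMIs 13 came from 1 cell, and the Foxc2 ratio of 2.12 had an interval that included no change (0.916 to 5.48). Pgf, which encodes a Flt1 ligand, was the 1 other ligand measured, with 81 UMIs in mutant and 3 UMIs in control cells, a ratio of 19.9 (6.58 to 98.6). Of the 81 UMIs 46 came from 1 cell, and its log2 ratio was 1.36 with equal weight for each cell.

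Outside the endothelium few pathway genes passed. In cardiomyocytes 0 genes of the 6 lists did. Over all genes measured, 2.70% of epicardial and 0.714% of mesenchymal genes were past 1.5-fold towards the mutant. Towards the control it was 4.66% of epicardial and 1.05% of mesenchymal genes. In epicardial cells Vegfc, the ligand of Flt4, was at 25.4 CPM in mutant and 8.88 CPM in control cells, from 36 UMIs in 21 mutant cells and 7 UMIs in 7 control cells, and at 0.30 with equal weight for each cell. Nck1 was past 1.5-fold towards the mutant, and Klf4, Nr4a1 and the glucose carrier Slc2a1 towards the control, with Klf4 at 42.3 CPM in mutant and 96.4 CPM in control cells. In mesenchymal cells Klf2, a flow-responsive factor in endothelium, was at 696 CPM in mutant and 305 CPM in control cells, and Klf4 at 44.8 CPM in mutant and 21.0 CPM in control cells. Klf2, Klf4 and Nr4a1 are also immediate early genes that respond to tissue dissociation, and the part of handling in their values was not tested. Ptprb was at 7.22 CPM in mutant and 16.7 CPM in control mesenchymal cells. Weighting each cell equally, mesenchymal Klf4 was at 0.47, mesenchymal Ptprb at -0.51 and epicardial Slc2a1 at -0.53, all under 1.5-fold, while mesenchymal Klf2 was at 1.26. Epicardial Nck1 was then at 0.87, Klf4 at -0.86 and Nr4a1 at -1.24.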

How the data were processed

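Per the file headers, the deposited tables hold whole-number UMI counts for each gene and barcode, from Cell Ranger 3.0.2. Seurat is also named, per the submitters' processing notes. Cells were prepared with TrypLE and a Chromium v2 kit, per the labels' protocols, but the 6794880 barcodes of the control table match the list of a later kit, so the chemistry and whether it was the same in both libraries are not settled. The build and annotation behind the counts were not given in the sources used here. Of both tables, the control's was unfiltered (542175 barcodes with a UMI) and the mutant's filtered (7181 barcodes).

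Cells with at least 1000 UMIs, at least 500 genes and at most 20% mitochondrial UMIs were kept. A cell joined a class if it passed a minimum number of panel markers and a minimum panel share, and cells that passed more than 1 gate (265 mutant, 262 control) were left out, with epicardial taking precedence over mesenchymal. The gate levels were set with the data at hand. Doublet scores, after the Scrublet method, served only in an alternative. Myl2-high and Nppa-high meant at least 20 UMIs per 10000.

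UMIs were summed per class and library and scaled to 1000000 per class and library (CPM). Levels have exact Poisson intervals, ratios exact conditional binomial ones, both at 95% and for counting error only. A count of 0 was read as allowing 3. Because each genotype had 1 library, no p-value was computed. The ratio computation was tested on simulated data. Likeness used genes with at least 50 CPM in a group, without members, panel markers, haemoglobin, mitochondrial, ribosomal, Gm and Rik genes. Up to 4 list genes past 1.5-fold are named per list and class, the largest first. Values of 2 genes that these rules name are not reported here. Promoter motifs were counted on both strands. The members and lists were chosen with earlier results of these data known. Python 3.11.15, numpy 2.4.6, scipy 1.17.1, pandas 2.3.3, scikit-learn 1.9.0, leidenalg 0.10.2 and igraph 0.11.9 were used. GENCODE M21 held 99.6% of the gene identifiers.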

Additional observations from a re-analysis of the deposited data

How the results depend on the processing

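Over 15 alternatives, 14 of them planned, 354 of 375 log2 ratios stayed within their counting interval, 18 left it, and 3 more left it with a change of sign from past 1.5-fold. A change of sign occurred in 20 of the 375, over 12 of the 25 ratios: 3 in Npr3-positive, 4 in Npr3-negative, 1 in cardiomyocytes, 3 in epicardial and 1 in mesenchymal cells. The 3 from past 1.5-fold were in Npr3-positive cells: Kdr at -0.11 with at least 2 Npr3 UMIs required, Flt1 at -0.092 with equal weight for each cell, and Tie1 at -0.082 with each cell thinned to 1000 UMIs. The count of genes past 1.5-fold was 4 in Npr3-positive cells. It was 2 with cells that pass 2 gates kept, 2 with all endothelial cells together, and 0 with each cell thinned, where 0 genes met the minimum of 30 UMIs. It was 5 without the deepest cell of each library and without the deepest 5% of cells, and 3 with equal weight for each cell. In Npr3-negative cells the count was 1. It was 0 with stricter gates, with cells that pass 2 gates kept, with a pseudocount of 50 CPM and without the deepest cell of each library, and 2 with at least 2 Npr3 UMIs required, with a pseudocount of 1 CPM and with all endothelial cells together. In epicardial cells it was 0, and 2 with stricter gates (Nrp1 at 0.63 and Nrp2 at 0.80). Shares of all genes past 1.5-fold were found only for the main setting and for all endothelial cells together. The other counts have no background share beside them. Where not stated, the cause was not tested. In cardiomyocytes and mesenchymal cells the count was 0 under each of the 15 alternatives, which do not include joint clusters. With joint clusters in place of gates, 83 of 100 levels stayed within their interval and 17 moved. Mesenchymal Vegfb was then at 169 CPM in mutant and 299 CPM in control cells, more than 1.5-fold towards the control. Genes past 1.5-fold were not counted with joint clusters. No paired analysis was possible because each genotype had 1 library. The 55 mutant and 31 control Npr3-positive cells set the precision of the endothelial values, and differences between embryos were not measured.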

Other observations

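Flt1 stood apart in barcodes with under 100 UMIs, which only the control table holds (535027 barcodes, 1560353 UMIs). It was at 38.5 CPM there (29.3 to 49.5), against 4.70 CPM over all kept control cells, a ratio of 8.18 (6.03 to 10.96). The ratio was 2.42 for Tie1 (1.01 to 4.96), 1.49 for Kdr (0.669 to 2.89), 2.13 for Tek (1.20 to 3.54), 1.16 for Nrp1 (0.836 to 1.56) and 0.740 for Vegfb (0.678 to 0.805). Of 10155 genes with at least 2 CPM in kept cells and 30 UMIs in all, 1.25% had a ratio as high as that of Flt1, and the median was 1.26. Flt1 had 0 UMIs in control epicardial, red and immune cells, 12 in control cardiomyocytes and 2 in control mesenchymal cells.

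Immune cells, 70 in the mutant and 68 in the control, also held co-receptor transcripts. Nrp1 was at 45.2 CPM in mutant (25.8 to 73.3) and 66.4 CPM in control (38.0 to 108) immune cells, near the Npr3-negative endothelial level, and Vegfb at 70.6 CPM in mutant and 112 CPM in control immune cells. Kdr, Flt1, Tek and Tie1 together had 1 UMI in the immune cells of each library. Among mesenchymal cells, those without a Tcf21 UMI held more Angpt1 than those with one: 15.2 CPM in mutant (8.52 to 25.1) and 20.9 CPM in control (12.2 to 33.5) cells without it, against 4.42 CPM in mutant (2.41 to 7.41) and 6.81 CPM in control (3.27 to 12.52) cells with it. Kdr in cardiomyocytes was mostly counted in the Myl2-low group, at 1.45 CPM in mutant (0.693 to 2.66) and 3.91 CPM in control (2.67 to 5.52) cells, against 0.288 CPM in mutant and 0.344 CPM in control Myl2-high cells.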
